A study of Mus musculus with 32 samples.

Results

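The liver response to maternal obesity (MO) was compared between male and female mouse offspring at 3 weeks of age, gene by gene, as the difference between the MO effect in males and the MO effect in females. The 16 libraries of that age, of 32 in the whole series, gave 14639 genes outside chromosomes X and Y of 15097 genes tested, and all of them entered the comparison. The groups, with 4 mice each, were control males (CM), males of obese dams (MM), control females (CF) and females of obese dams (MF). Dams of CM and CF ate chow and dams of MM and MF ate a Western-style diet, from 4 weeks before mating until the pups' livers were taken at postnatal day 21, before weaning. Sires were wild-type, and litters were reduced to at most 6 pups. All offspring, controls included, carried floxed Reg3g alleles (Reg3g-fl/+ or Reg3g-fl/fl) from a colony kept at the study's institution on a C57BL/6J background, and had free access to food. Which mice shared a litter and at what hour they were killed is not given in the sources used here, so p-values measure the spread between these 4 animals a group. The quantity reported is (MM minus CM) minus (MF minus CF) on the log2 scale, called the sex difference below. It is negative where MO lowered a transcript more, or raised it less, in males than in females.

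The liver makes cholesterol from acetyl-CoA by a chain of enzymes that runs through mevalonate and squalene. Most genes of the chain are under the transcription factor SREBP2, which is held in the endoplasmic reticulum by Insig proteins while sterols are plentiful and reaches the nucleus when they are scarce. A related factor, SREBP1c, encoded by Srebf1, drives fatty acid and triacylglycerol synthesis and is under insulin and the sterol sensor LXR. Suckling pups live on fat-rich milk, with high fatty acid oxidation and ketogenesis and little lipogenesis. Promoters of sterol-regulated genes are known for sterol regulatory elements, here searched for as the letters TCACNCCA, and for neighbouring CCAAT boxes, which bind the factor NF-Y.

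Promoters of 4 of the genes whose responses are described next are shown because they belong to the 2 sterol lists, in which most genes were called down in males. Each run is 250 bases before to 50 bases after the gene's start, from RefSeq on GRCm38.p6, written 5′ to 3′ on the gene's own strand, with the motif letters in capitals (ATTGG is CCAAT read on the other strand). Hmgcs1, the HMG-CoA synthase, lies at chr13:119690101-119690400 (plus strand), Msmo1, a sterol demethylase subunit, at chr8:64733529-64733828 (minus), Mvd, mevalonate diphosphate decarboxylase, at chr8:122443373-122443672 (minus) and Insig1 at chr5:28071162-28071461 (plus).
Hmgcs1: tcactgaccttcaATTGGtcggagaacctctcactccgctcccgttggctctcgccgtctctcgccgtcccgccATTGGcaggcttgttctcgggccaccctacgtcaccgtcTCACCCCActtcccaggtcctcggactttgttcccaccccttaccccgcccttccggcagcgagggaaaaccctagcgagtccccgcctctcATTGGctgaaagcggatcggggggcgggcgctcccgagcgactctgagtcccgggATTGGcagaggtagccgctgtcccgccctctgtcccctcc
Msmo1: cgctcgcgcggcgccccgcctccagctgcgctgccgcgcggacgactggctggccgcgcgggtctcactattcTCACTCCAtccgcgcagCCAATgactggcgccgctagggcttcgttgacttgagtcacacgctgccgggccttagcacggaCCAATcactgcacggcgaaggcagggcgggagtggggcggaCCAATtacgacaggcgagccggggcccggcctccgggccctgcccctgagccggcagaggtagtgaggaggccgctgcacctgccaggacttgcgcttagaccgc
Mvd: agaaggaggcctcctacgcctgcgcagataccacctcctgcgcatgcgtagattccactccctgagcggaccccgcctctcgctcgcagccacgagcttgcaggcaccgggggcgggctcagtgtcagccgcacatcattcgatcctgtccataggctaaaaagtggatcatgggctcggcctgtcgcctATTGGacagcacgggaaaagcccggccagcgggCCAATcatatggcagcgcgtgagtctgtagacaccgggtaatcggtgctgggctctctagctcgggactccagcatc
Insig1: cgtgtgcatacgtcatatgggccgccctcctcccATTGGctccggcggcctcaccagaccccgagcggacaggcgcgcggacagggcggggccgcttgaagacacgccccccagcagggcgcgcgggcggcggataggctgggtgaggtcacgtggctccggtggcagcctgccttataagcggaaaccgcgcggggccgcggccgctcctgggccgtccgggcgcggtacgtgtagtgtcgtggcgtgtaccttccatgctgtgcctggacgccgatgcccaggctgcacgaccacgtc
The Hmgcs1 run holds 1 TCACNCCA and 4 CCAAT, the Msmo1 run 1 and 3, the Mvd run 0 and 2, and the Insig1 run 0 and 1, on both strands and with no overlap between the motifs. Of the 13 cholesterol synthesis genes with a promoter in the table, 12 (92.3%) held CCAAT, against 42.5% of the 10852 genes tested with a promoter, and 2 (15.4%) held TCACNCCA, against 4.61%. CCAAT was also in 10 of 13 fatty acid synthesis and desaturation genes (76.9%) and in 4 of 6 cholesterol uptake and SREBP control genes (66.7%). A match describes letters in this window and is not a shown site, and a run without a match says only that the letters are not in these 300 bases. Sqle had no entry in the table.

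Some libraries stood apart before any comparison. Library names give the group and the replicate number in the sample titles, which are 1, 3, 4 and 5 for males and 3, 4, 5 and 6 for females, and values below follow that order. Levels are in CPM, a gene's reads scaled to a common library total after TMM scaling, which corrects totals for differences in RNA composition. CF5 was high in interferon-induced genes (mean log2 CPM of the interferon response list 6.51, other CF libraries 4.04 to 4.29), CM1 in lipogenic genes, and CM4 in the acute phase gene Saa1 (833 CPM). MF4 carried transcripts of brain, a list added after its values were seen: 18 of 20 listed genes were measured, and their summed level was 425 CPM in MF4, 108 in MM4, 55.0 in MM3, 50.2 in CM5, 28.6 in CF5, 25.4 in MF3 and 4.08 to 9.47 in the other 10 libraries. Hepatocyte markers were abundant in all 16 libraries, with a summed level of 128137 to 176135 CPM over 10 genes, and no listed marker of pancreatic acinar cells or adipocytes reached the count filter. Depth was 31550883 to 48333728 counted reads a library.

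More genes were called for MO in females than in males, and the sex difference itself passed the test in few genes. A gene is called here when its adjusted p (FDR, from edgeR's quasi-likelihood test with Benjamini-Hochberg adjustment over all 15097 genes tested) is below 0.05. The sex difference called 2 genes, 0.0137% of the genes outside X and Y, both negative, Sqle among them. At an unadjusted p under 0.05 it held 1288 genes (8.80%), 644 (4.40%) in each direction, and with library totals in place of TMM scaling 834 positive and 444 negative. MM minus CM called 571 genes (3.90%), 248 (1.69%) up and 323 (2.21%) down, whereas MF minus CF called 2125 (14.5%), 1024 (7.00%) up and 1101 (7.52%) down. With library totals these splits became 520 up and 199 down in males and 1250 up and 675 down in females. The male count was 289, 291, 259 and 362 without CM4, CM5, MM3 and MM4 in turn, and the female count was 1062, 1104, 1257 and 1301 without CF3, CF4, MF5 and MF6. Of the 395 genes called in both sexes 0 had opposite signs, and of the 2301 called in either sex 201 had.

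The 1288 genes held more cases of a larger female response than of a larger male one. In 456 of them the MO effect had the same sign in both sexes, larger in males for 86 and larger in females for 370. In the other 832 the signs were opposite, with the larger size in males for 256 and in females for 576. Over all genes, the effect was larger in size in males for 5548 (37.9%), and the median absolute log2 effect was 0.16 in males and 0.22 in females. Of the pathway lists, cholesterol synthesis was the one in which every measured member had the larger effect in males.

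**Figure D1:**
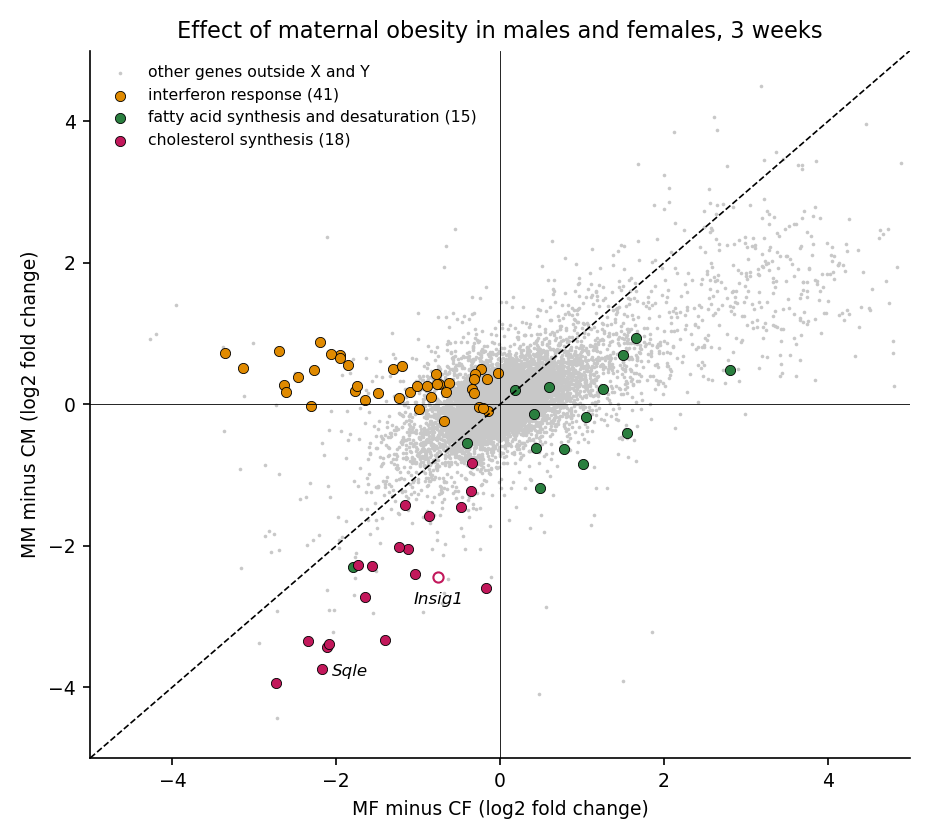
Effect of maternal obesity on each gene in females (horizontal, MF minus CF, log2 fold change) against males (vertical, MM minus CM, log2 fold change) at 3 weeks, with equal effects on the dashed line; both axes are cut at 5, which hides Hamp among others. All 18 cholesterol synthesis genes lie below 0 on the vertical axis and below the dashed line, as does Insig1 (open circle), 13 of the 15 fatty acid synthesis genes lie to the right of 0, and the 41 interferon response genes lie left of the line.

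Cholesterol synthesis genes fell with MO in both sexes, with the larger estimate in males for every measured member. Of the 20 genes listed, 18 were tested. All 18 were called down in MM minus CM (2.21% of all genes) and 16 in MF minus CF (7.52%), and all 18 had the larger effect in males (37.9%). The median log2 effect was -2.35 in males and -1.32 in females, beside 0.01 and -0.00 over all genes, and the median sex difference was -0.98, with 16 of 18 negative at p under 0.05 (4.40% of all genes) and 0 positive. Mean log2 CPM of the list ran from 7.04 to 7.62 in CM, 6.28 to 6.95 in CF, 5.15 to 5.62 in MF and 4.56 to 5.01 in MM. CM libraries were therefore the highest and MM libraries the lowest, with no overlap between any of the 4 groups. The median difference CM minus CF was 0.62 and the median MM minus MF was -0.39, so the list was higher in males among controls and lower in males among offspring of obese dams. Without MF4 the median sex difference of the cholesterol synthesis list was -1.04, and over all alternatives it stayed between -1.09 and -0.87.

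Sqle (chr15:59315077-59331192, plus strand), squalene epoxidase, the oxygen-requiring step that commits squalene to sterols, changed in both sexes. CM held 185, 141, 119 and 206 CPM and MM 10.6, 13.6, 12.5 and 11.9 CPM. CF held 73.6, 106, 87.9 and 104 CPM and MF 24.6, 19.1, 17.9 and 20.8 CPM. Control and MO libraries were apart in each sex, and MM lay below MF with no overlap. The fall was 3.75 in males (log2, called at FDR = 2.60e-08) and 2.17 in females (FDR = 6.21e-06), and the sex difference was -1.57 (SE 0.23, 95% interval -2.07 to -1.08, n = 4 a group, FDR = 0.0477 by edgeR). Sqle stayed between -1.70 and -1.44 over 26 alternatives, 8 of which called it (highest FDR 0.313), and of the single libraries only CM3 or CM4 could be left out with the call kept.

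**Figure D2:**
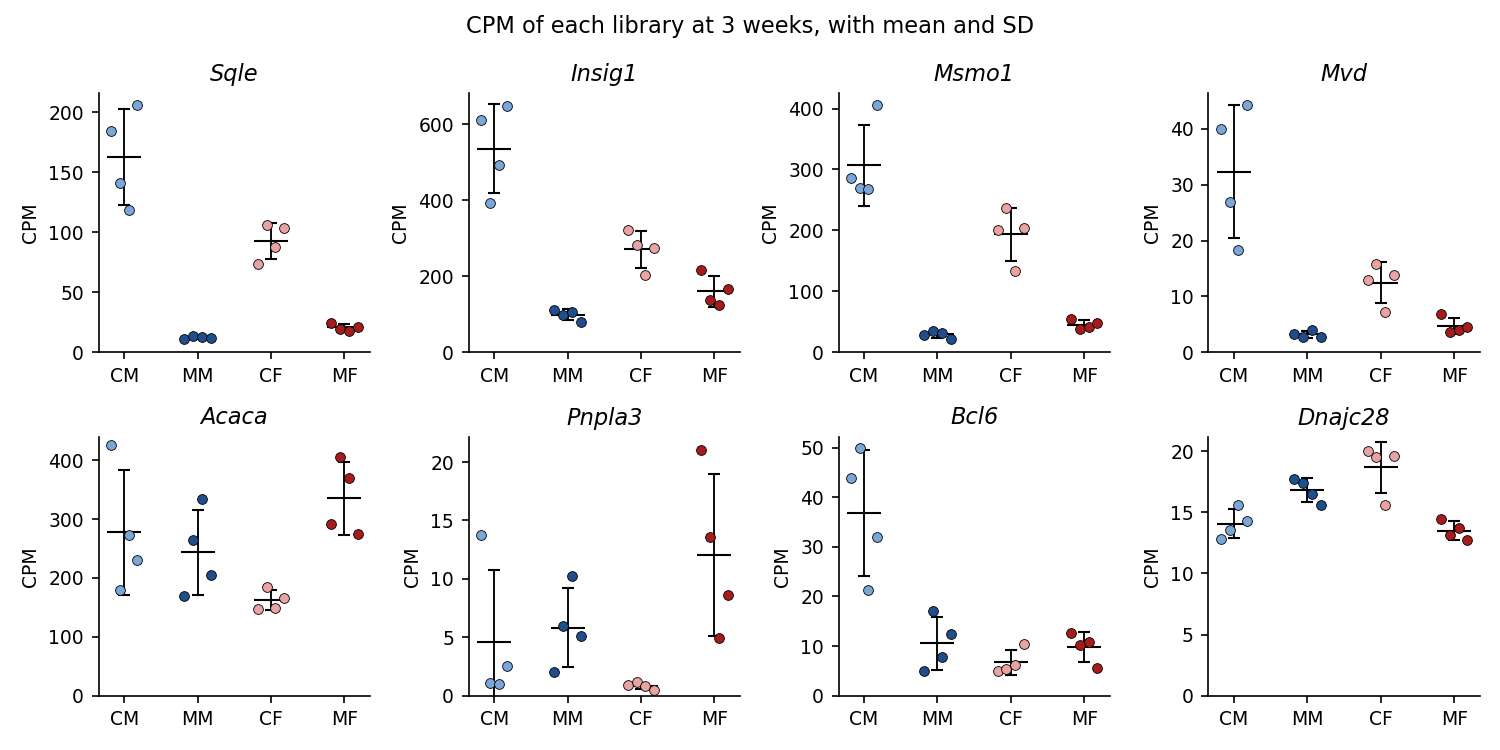
CPM (linear axis from 0) of 8 genes in each 3-week library (points) of CM, MM, CF and MF, with the group mean (line) and SD (bar, cut at 0 where it would pass below); the genes of the lower row differ in pattern from the SREBP2 genes of the upper row. In the Sqle panel MM lies below MF and both lie below the controls, and the Pnpla3 panel shows CM1 at 13.7 CPM far above the other CM libraries.

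In all 18 genes the group means ran from CM through CF and MF down to MM. Msmo1 held 285, 269, 267 and 406 CPM in CM, 27.8, 34.2, 32.3 and 22.3 CPM in MM, 200.4, 236, 134 and 203 CPM in CF, and 54.0, 38.4, 40.9 and 48.2 CPM in MF. Its sex difference of -1.31 (SE 0.26, FDR = 0.328) did not pass the test. Mvd, of low abundance, held 18.2 to 44.2 CPM in CM, 2.76 to 3.98 in MM, 7.28 to 15.8 in CF and 3.62 to 6.81 in MF, with a sex difference of -1.93 (SE 0.41, FDR = 0.328). In both genes the control and MO libraries of a sex were apart. Early and late steps both showed negative values: Hmgcs1 -1.08, Idi1 -1.21, Fdps -1.33, Fdft1 -0.92, Lss -1.36 and Hsd17b7 -0.97, each a log2 sex difference that did not pass the adjusted quasi-likelihood test. The likelihood ratio test called 8 of the 18 cholesterol synthesis genes (17 of 14639 over all genes) and DESeq2 11 (34 of 11198). Msmo1, Mvd, Lss, Hsd17b7, Fdps and Fdft1 were called by both and Idi1 by DESeq2. The 2 members with an interval crossing 0 were Mvk and Tm7sf2.

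Most genes that sense sterols or take up cholesterol fell in males. Of the 10 genes of the cholesterol uptake and SREBP control list, 7 were called down in males (2.21% of all genes) and 3 in females (7.52%), and the difference between these counts was not tested. The median effects were -0.74 and -0.17, with a median sex difference of -0.67 and 7 genes negative at p under 0.05 (4.40% of all genes). Insig1, the retention protein that is itself a SREBP2 target, held 611, 393, 494 and 649 CPM in CM and 112, 97.4, 105 and 80.2 CPM in MM. It held 322, 282, 203 and 276 CPM in CF and 216, 136, 124 and 165 CPM in MF. MM lay below all other libraries, CM above them, and CF and MF overlapped by 1 library. Insig1 fell by 2.44 in males (FDR = 6.18e-06) and by 0.75 in females (FDR = 0.0199), with a sex difference of -1.69 (SE 0.27, FDR = 0.0887) that 3 of 26 alternatives called.

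Stard4, a cytosolic sterol carrier, held 198 to 269 CPM in CM, 114 to 137 in MM, 119 to 179.6 in CF and 149 to 207 in MF. It fell by 0.84 in males (FDR = 0.00332), with a female difference of 0.18 (FDR = 0.392) and a sex difference of -1.02 (FDR = 0.266) that the likelihood ratio test and DESeq2 called. Srebf2 itself fell in both sexes, by 1.17 in males (FDR = 0.00011) and by 0.72 in females (FDR = 0.00294). Scap, the escort of SREBP, fell by 0.52 in each sex (FDR = 0.0236 and 0.00986). Scap, Npc1 and Insig2 had sex differences of 0.01, 0.03 and 0.22, with intervals on both sides of 0.

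**Figure D3:**
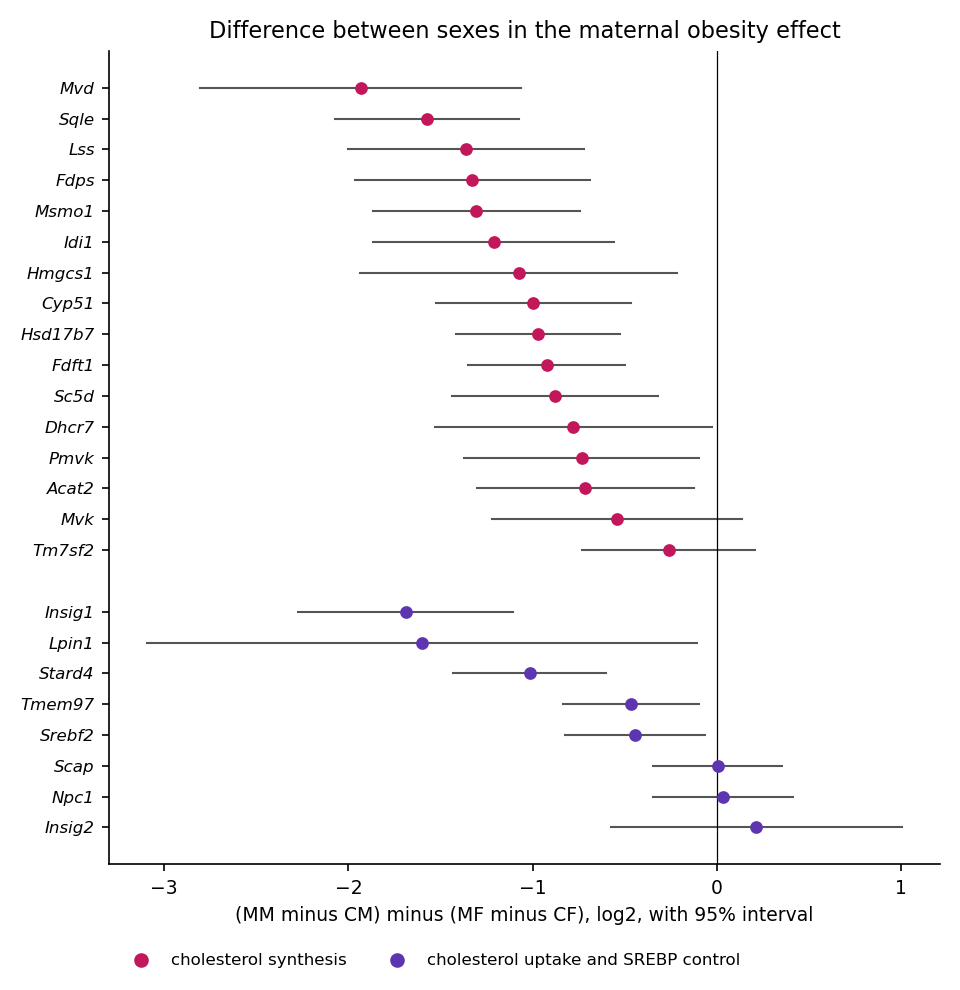
Sex difference in the MO effect, (MM minus CM) minus (MF minus CF), for 16 genes of cholesterol synthesis (upper block) and 8 of cholesterol uptake and SREBP control (lower block); points are log2 estimates and bars their 95% intervals from edgeR. All 16 upper points lie left of 0, from Mvd at -1.93 to Tm7sf2 at -0.26, and Scap, Npc1 and Insig2 lie at or right of 0.

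Fatty acid synthesis went the other way in the females, and the size of its sex difference depended on single libraries. All 15 genes of the fatty acid synthesis and desaturation list were tested. In females 6 were called up (7.00% of all genes) and 2 down (7.52%), in males 1 up (1.69%) and 2 down (2.21%), and the median effects were 0.77 and -0.19. The male median changed sign without CM1 (0.097) and was -0.38 without MM4. The median sex difference was -1.04, with 8 genes negative at p under 0.05 (4.40% of all genes) and 0 positive, and 14 of 15 below 0 (50.9% of all genes). Mean log2 CPM of the list was 9.48 in CM1 against 7.90 to 8.76 in the other CM libraries, 7.95 to 8.91 in MM, 7.90 to 8.25 in CF and 8.68 to 8.98 in MF. Only the female groups were apart. With CM1 and MM1 both left out, the 2 libraries whose titles lack a suffix, the median of the fatty acid synthesis and desaturation list was -0.45 with 3 genes negative at p under 0.05. It was -0.65 without CM1 alone and -0.56 with sample weights in limma voom. Without CM3 it was -1.33 with 12 genes negative at p under 0.05, and without MM4 it was -1.14.

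Acaca (chr11:84129672-84401651, plus strand), the acetyl-CoA carboxylase that makes malonyl-CoA, had the lowest p of the list. CM held 426, 180.4, 273 and 231 CPM, MM 169.9, 265, 335 and 206 CPM, CF 148, 184, 149.8 and 165 CPM, and MF 291, 405, 371 and 275 CPM. MF lay above CF in every library, and CM and MM overlapped. Acaca rose by 1.05 in females (FDR = 0.0118), the male difference was -0.19 (FDR = 0.741), and the sex difference of -1.24 (95% interval -1.96 to -0.51, FDR = 0.449) did not pass the test. Thrsp, a lipogenic nuclear protein induced by feeding, rose by 2.80 in females (FDR = 0.00477) with a male difference of 0.49 (FDR = 0.679), and Elovl6, which elongates palmitate, rose by 1.55 in females (FDR = 0.0289) with a male difference of -0.40 (FDR = 0.682). Srebf1 rose in both, by 0.93 in males (FDR = 0.0436) and 1.66 in females (FDR = 0.00116). Scd1, the stearoyl-CoA desaturase and the most abundant member, held 3275 to 22707 CPM in CM with the maximum in CM1, and 15620 to 17437 CPM in MF.

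Over 13 genes of the triacylglycerol synthesis list the median effect was 0.22 in males and 0.54 in females, the median sex difference was -0.15, and 3 genes were negative at p under 0.05 (4.40% of all genes), namely Pnpla3, Gpam and Lpin1. That median sex difference was -0.23 without MM3, -0.088 without MM1 and -0.018 in limma voom. Pnpla3, a lipid droplet acylhydrolase that is a target of SREBP1c, held 13.7, 1.05, 1.03 and 2.50 CPM in CM and 1.98, 5.94, 10.3 and 5.14 CPM in MM. It held 0.906, 1.13, 0.811 and 0.497 CPM in CF and 21.0, 13.6, 4.96 and 8.65 CPM in MF. Every MF library was above every CF library, and the males overlapped. Pnpla3 rose by 3.84 in females (FDR = 0.00770) with a sex difference of -3.50 (SE 1.07, FDR = 0.486), and -1.62 with CM1 and MM1 both left out. Dgat2, the most abundant triacylglycerol gene, differed by 0.13 in males and 0.22 in females, with a sex difference of -0.09 (95% interval -0.44 to 0.26).

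**Figure D4:**
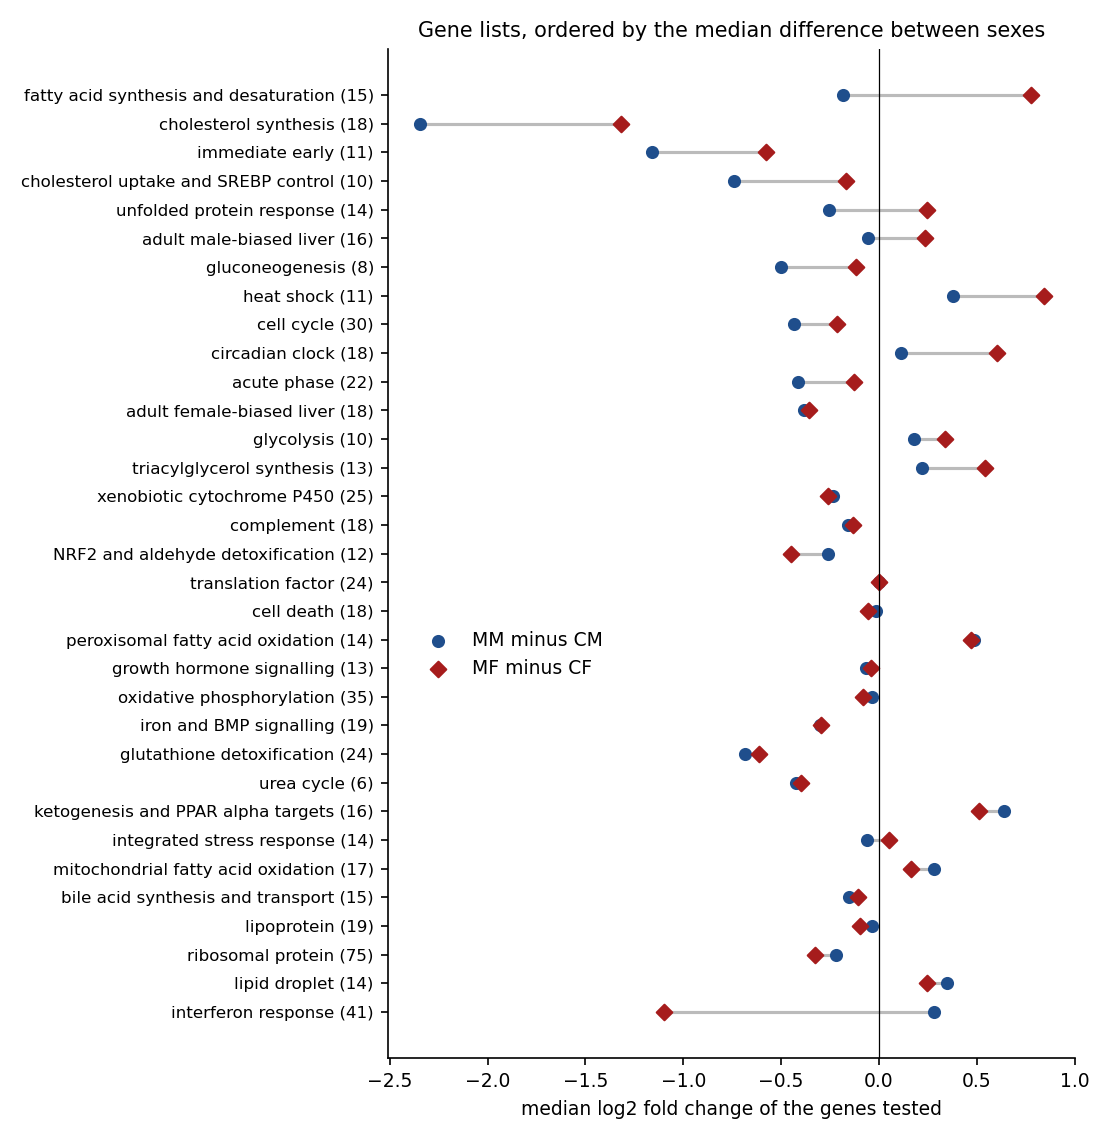
Median log2 fold change of each pathway list in males (circles, MM minus CM) and females (diamonds, MF minus CF), with the number of genes tested in brackets and lists ordered by their median sex difference. Cholesterol synthesis lies far left in both sexes with the male circle at -2.35, fatty acid synthesis lies right of 0 only in females, interferon response is split between 0.28 in males and -1.10 in females (-0.084 without CF5), and the lists near the middle show circle and diamond together.

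Of the pathway lists, interferon response had the largest positive median sex difference, and its size depended on CF5. All 41 genes had a positive sex difference (49.1% of all genes), 27 at p under 0.05 (4.40% of all genes) and 0 called, with a median of 1.26. The median MO effect was 0.28 in males and -1.10 in females, and 12 genes (7.52% of all genes) were called down in females. Without CF5 the female median of the interferon response list was -0.084, and the effect was larger in males for 28 of the 41 genes in place of 5. Psmb9, an immunoproteasome subunit and the member with the lowest p, held 10.8, 9.92, 78.3 and 8.83 CPM in CF, 5.92 to 7.99 in MF, 6.97 to 8.13 in CM and 6.61, 13.4, 19.3 and 7.57 in MM. CF5 stood far above the other 15 libraries, and the other CF libraries still lay above MF. Iigp1, an interferon-induced GTPase and the most abundant member, held 5762 CPM in CF5 and 256 to 552 CPM in all other libraries. Without CF5 the median of the interferon response list was 0.41 and 6 genes were positive at p under 0.05, and without CF5 and CM4 the values were 0.35 and 3. For Psmb9 the sex difference went from 2.61 (FDR = 0.497) to 1.15 without CF5. In bulk liver, fewer cells of a type and less RNA per cell cannot be told apart. T and NK cell markers, summed over 10 genes, were also highest in CF5 at 14.6 CPM (4.01 to 8.24 CPM elsewhere), and their part in the result was not tested.

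**Figure D5:**
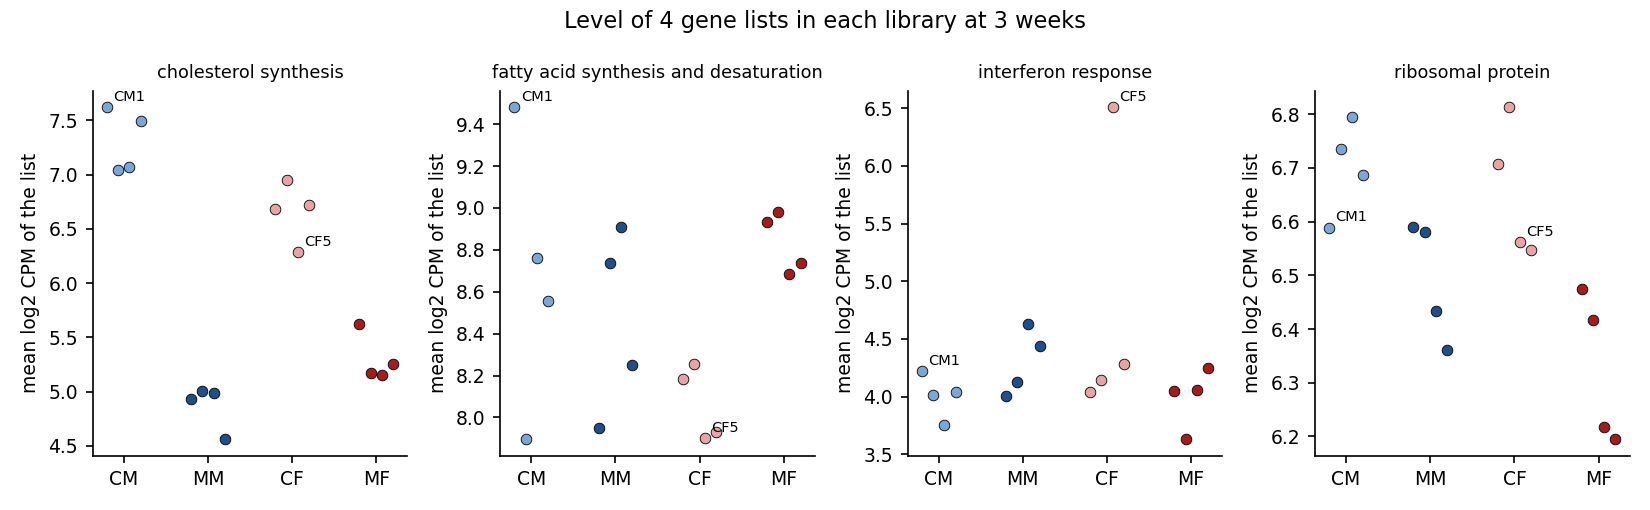
Mean log2 CPM of 4 gene lists in each 3-week library (points) of CM, MM, CF and MF, each panel on its own vertical axis that does not start at 0. In the interferon response panel CF5 lies at 6.51 and all other libraries lie at or below 4.63, and in the fatty acid synthesis panel CM1 is the highest point at 9.48.

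Most ribosomal protein genes fell in females. Of 79 listed genes 75 were tested, 54 were called down in females (7.52% of all genes) and 1 in males (2.21%), with median effects of -0.33 and -0.22. The sex difference was positive for 73 of 75 (49.1% of all genes) but small, with a median of 0.11, 1 gene at p under 0.05 and 0 called. Rpl31, that gene, held 83.7 to 94.9 CPM in CM, 73.8 to 90.1 in MM, 83.0 to 97.5 in CF and 57.9 to 80.1 in MF. Rpl31 libraries of MF all lay below those of CF, and the males overlapped. Its sex difference was 0.29 (95% interval 0.00 to 0.57, FDR = 0.570). Rpl4, the most abundant member, gave 0.06 (-0.15 to 0.27). The count of positive members of the ribosomal protein list was 52 with CM1 and MM1 left out and 57 without CF4. The larger number of calls in females is not a tested difference between the sexes.

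Several pathways had similar median effects of MO in both sexes. Over all genes, 1.69% were called up and 2.21% down in males, and 7.00% and 7.52% in females. The peroxisomal fatty acid oxidation list had a male median of 0.48 and a female one of 0.47, with 5 and 8 of 14 genes called up. For mitochondrial fatty acid oxidation the medians were 0.28 and 0.16, with 5 and 6 of 17 genes called up. Ketogenesis and PPAR alpha targets had medians of 0.64 and 0.51, with 9 and 10 of 16 called up, and Creb3l3, a fasting-induced factor of lipid metabolism, rose by 0.49 in males (FDR = 0.00324) and by 0.27 in females (FDR = 0.0379) with a sex difference of 0.22 (95% interval -0.02 to 0.46). Glutathione detoxification had medians of -0.69 and -0.61, with 10 and 14 of 24 called down. Gsta3, a glutathione transferase, fell by 0.82 and 0.64 (FDR = 0.00167 and 0.00440), with a sex difference of -0.18 (-0.55 to 0.19). Median sex differences of these lists lay between -0.01 and 0.08, and none of their genes was called. Genes with intervals as wide as these can still differ between the sexes by the amounts the intervals hold.

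Of the 19 iron and BMP signalling genes, 1 was called up (1.69% of all genes) and 6 down (2.21%) in males, and 2 up (7.00%) and 9 down (7.52%) in females. The median effect was -0.30 in each sex and the median sex difference 0.03. Hamp, the liver hormone hepcidin that lowers iron uptake, was at 97.4 to 411 CPM in CM and 257 to 516 CPM in CF, and at 0.0233 to 1.06 CPM in MM and at most 0.328 CPM in MF. Controls and MO libraries were apart by a wide margin in both sexes, and the sex difference of 2.06 (95% interval -0.48 to 4.61, FDR = 0.637) rests on few reads in MO libraries. Id1, a BMP target, fell by 1.87 in males (FDR = 0.00131) and 2.86 in females (FDR = 4.76e-05), and Tfrc, the transferrin receptor, rose by 1.92 (FDR = 0.00936) and 3.15 (FDR = 0.000363). Their sex differences, 1.00 and -1.23, did not pass the test (FDR = 0.518 and 0.523). Tfrc also belongs to dividing red cells, and erythroid markers, summed over 11 genes, were 142 to 327 CPM in CM, 299.5 to 952 in MM, 227 to 405 in CF and 371 to 716 in MF. The median sex difference of the erythroid markers was 0.73, against -1.23 for Tfrc, and their part in the Tfrc values was not tested. Among lipid droplet genes, Cidec, which enlarges droplets, rose in both sexes, by 3.37 (FDR = 0.0132) and 2.77 (FDR = 0.0142), with a sex difference of 0.61 (-1.34 to 2.56).

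Hormone and stress genes gave a mixed picture. Bcl6 (chr16:23965052-23988852, minus strand), a repressor under growth hormone in the liver, held 43.9, 49.9, 21.4 and 32.0 CPM in CM and 4.88, 17.1, 7.77 and 12.4 CPM in MM. It held 5.00, 5.29, 6.13 and 10.4 CPM in CF and 12.6, 10.2, 10.7 and 5.50 CPM in MF. CM lay above all other libraries, which overlapped. Bcl6 was 1 of 2 genes (0.0137%) called between the control sexes (2.46 higher in CM, log2, FDR = 0.0205). Bcl6 fell by 1.81 in males (FDR = 0.0149), the female difference was 0.54 (FDR = 0.341), and the sex difference was -2.35 (SE 0.53, FDR = 0.380), which the likelihood ratio test (FDR = 0.0160) and DESeq2 (FDR = 0.00397) called. The 13 genes of the growth hormone signalling list, Bcl6 included, had a median sex difference of 0.00, and Igf1 had 0.00 (95% interval -0.57 to 0.58).

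In the gluconeogenesis list, 2 of 8 genes were negative at p under 0.05 (4.40% of all genes) and 0 were called. Tat, the glucocorticoid-induced tyrosine aminotransferase, held 1627, 1381, 1079 and 1214 CPM in CM, 479, 283, 281 and 245 CPM in MM, 1015, 680.3, 624 and 854 CPM in CF, and 295, 686, 373 and 428 CPM in MF. Male groups were apart and female groups overlapped by MF4. Tat fell by 2.04 in males (FDR = 0.000505) and 0.83 in females (FDR = 0.0430), with a sex difference of -1.21 (95% interval -1.98 to -0.43, FDR = 0.486). Igfbp1, which rises in fasting, fell by 2.05 in males (FDR = 0.0266) with a female difference of -0.43 (FDR = 0.552). Pck1, the most abundant member of the gluconeogenesis list, had a sex difference of -0.64 (-1.98 to 0.71). The gluconeogenesis median was -0.38, and -0.11 without MF4. Immediate early genes had a median of -0.88 with 0 of 11 at p under 0.05, and -0.066 without MF4.

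Several chaperones rose in females. Of 11 heat shock genes, 5 were called up in females (7.00% of all genes) and 2 in males (1.69%), with medians of 0.84 and 0.38. Hspa4l, an HSP110-family chaperone, held 25.3 to 28.1 CPM in CF, 34.9 to 56.8 in MF, 24.3 to 44.3 in CM and 30.4 to 42.8 in MM, so that only the female groups were apart. It rose by 0.84 in females (FDR = 0.00649), with a male difference of 0.07 (FDR = 0.886) and a sex difference of -0.78 (FDR = 0.497). The unfolded protein response list had 13 of 14 negative values (50.9% of all genes), a median of -0.45 and 3 at p under 0.05 (4.40% of all genes). The 18 clock genes, which cycle over the day, had median effects of 0.11 in males and 0.60 in females and a median sex difference of -0.20. In males 2 were called up (1.69% of all genes), and in females 5 up (7.00%) and 1 down (7.52%). Only 1 of 18 had a sex difference at p under 0.05, a positive one (4.40% of all genes). Arntl, the core activator, held 33.0, 3.08, 2.97 and 6.56 CPM in MM and 1.78 to 5.10 CPM in MF, against 10.8 to 36.4 in CM and 17.0 to 26.6 in CF. MM1 lay with the controls and the other MO libraries below. The sex difference of Arntl was 2.01 (FDR = 0.566) and 0.56 without MM1. Saa1, the acute phase gene with the lowest p of its list, gave -5.42 (FDR = 0.506), and -1.15 without CM4.

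Outside the lists, 8 of the 10 positive sex differences with the lowest p came from genes called down in females (7.52% of all genes). The choice by a positive sex difference favours such genes, so this count is partly built in. Dnajc28 (chr16:91614254-91619026, minus strand), a DnaJ-family protein, held 12.9, 13.5, 15.6 and 14.3 CPM in CM, 17.7, 17.4, 16.5 and 15.6 CPM in MM, 20.0, 19.5, 15.6 and 19.6 CPM in CF, and 14.5, 13.2, 13.7 and 12.7 CPM in MF. MF lay below CF in every library, and MM lay above CM apart from an overlap at 15.6 CPM. It fell by 0.47 in females (FDR = 0.00417), the male difference was 0.25 (FDR = 0.133), and the sex difference was 0.72 (SE 0.12, FDR = 0.127), called by 4 of 26 alternatives. Fbxl12, Ap5z1, Inca1, Cdk5rap1, Zbtb11os1, Abcd4 and Rbpms were called down in females as well, with sex differences of 0.84, 0.55, 0.78, 1.14, 1.11, 0.49 and 0.49, of which DESeq2 called the first 4. Ddx28, a mitochondrial RNA helicase, was called up in males (0.35, FDR = 0.0383) with a sex difference of 0.49, and Dnaaf3 (2.29) was under 0.7 CPM in every library. Trp53, the tumour suppressor p53, fell by 0.32 in females (FDR = 0.0296), with a male difference of 0.18 (FDR = 0.333) and a sex difference of 0.50.

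Of the 10 negative genes with the lowest p, the 3 outside the sterol lists, Pcdh17, Plpp1 and Pcmt1, were called up in females (7.00% of all genes). The choice by a negative sex difference favours that direction. Pcdh17, a protocadherin, held 3.51 to 5.71 CPM in CM, 3.13 to 4.92 in MM, 2.35 to 3.83 in CF and 9.61, 12.3, 6.81 and 6.01 in MF. MF was above all other libraries. Pcdh17 rose by 1.42 in females (FDR = 0.00229), with a sex difference of -1.63 (FDR = 0.328), and -1.42 without MF4, the library with the most brain transcripts. Plpp1, a lipid phosphate phosphatase, rose by 0.48 in females (FDR = 0.0213) with a sex difference of -0.84 (95% interval -1.21 to -0.46, FDR = 0.328), and Pcmt1, a protein repair methyltransferase, rose by 0.29 (FDR = 0.00604) with -0.40 (-0.58 to -0.22). The likelihood ratio test and DESeq2 called the sex differences of Pcdh17 and Plpp1, and DESeq2 that of Pcmt1.

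Cell type markers had median sex differences in both directions. The 8 sinusoidal endothelium markers were all negative (50.9% of all genes), with a median of -0.50 and 3 at p under 0.05 (4.40% of all genes), led by Lyve1, which rose by 1.43 in females (FDR = 0.000930) with a sex difference of -0.96 (FDR = 0.457). The 10 Kupffer cell and 7 B cell markers were all positive (49.1% of all genes), with medians of 0.42 and 0.48 and 1 each at p under 0.05 (4.40%), and the 5 neutrophil markers had a median of 1.27 with 0. Several of these medians depended on 1 library. Without CF5 the median was 0.23 for Kupffer cell markers, 0.25 for B cell markers and, from 0.79, 0.36 for T and NK cell markers, and without MM1 it was 0.26 for B cell and 0.62 for neutrophil markers. Cholangiocyte markers had a median of 0.62, which was 0.30 without CF4 and 0.25 without MM4. The 11 erythroid markers had a median of 0.73, with 10 positive (49.1% of all genes) and 1 at p under 0.05 (4.40%). Their mean log2 CPM varied from 0.76 to 3.91 between the MM libraries. Stellate cell and hepatocyte markers had medians of -0.10 and 0.04, and both changed sign on leaving out 1 library. For the 18 brain genes the median was 1.74 in males, 3.60 in females and -1.79 for the sex difference, with 0 at p under 0.05. Without MF4 the median sex difference of these genes was 1.36, of the opposite sign. They lie among the many points at the upper right of the plot of both arms. Snap25, a synaptic protein, was at 50.1 CPM in MF4, 16.6 in MM4 and 0 to 7.01 elsewhere. How this material reached the libraries was not tested.

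Of the 68 genes that the study names for its 3-week comparisons, 65 were tested, and since they were chosen on these libraries they are not independent evidence. Their sex difference was positive in 32 and negative in 33, with a median of -0.02 and a range of -3.50 (Pnpla3) to 4.08 (Gbp6), and 9 positive and 5 negative at p under 0.05 (4.40% of all genes each way). Without CF5 the positive count fell to 2 and the negative count was 5. Sqle alone was called. Irf3, an interferon regulatory factor, differed in a way that did not involve CF5: it held 39.6 to 43.2 CPM in CF, 31.4 to 35.6 in MF, 35.4 to 39.3 in CM and 35.2 to 40.3 in MM. It fell by 0.34 in females (FDR = 0.00424), the male difference was -0.02 (FDR = 0.915), and the sex difference was 0.32 (SE 0.09, FDR = 0.449).

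At 8 weeks, after 5 weeks on chow and in libraries made with another kit (Illumina Stranded mRNA in place of KAPA mRNA Hyperprep), the same contrast called 0 of 13769 genes outside X and Y, with 373 (2.71%) at p under 0.05. MM minus CM called 4 (0.0291%), with 5.98% at p under 0.05, and MF minus CF called 0 by edgeR, with 2.24% at p under 0.05. The 18 cholesterol synthesis genes had a median sex difference of 0.25 with 0 at p under 0.05, and Sqle was at 0.13 (SE 0.20). Its male effect was -0.17 and its female effect -0.30, against -3.75 and -2.17 at 3 weeks. The interferon response list had a median of 0.28 with 5 positive at p under 0.05, and fatty acid synthesis and desaturation had -0.01. The difference between the ages was not tested, since kit and age cannot be told apart.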

How the data were processed

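Livers of 3-week-old and 8-week-old mice were analysed by mRNA sequencing, 1 animal a library. Per the study's methods, reads were aligned to mm10 with STAR, those with poor mapping or several positions were dropped, and featureCounts gave 1 count a gene. The deposited raw counts were used here. The authors also deposited gene lengths, log2 CPM and fold changes, p-values and FDR of 5 comparisons of their own, which were not used. Strandedness of counting is not given in the sources used here.

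Counts were fitted separately at each age in R 4.3.3 with edgeR 4.0.16 (15 reads or more in 4 or more of 16 libraries, TMM scaling, 1 mean a group, glmQLFit and glmQLFTest), with Benjamini-Hochberg adjustment over all genes tested. CPM uses TMM-scaled library sizes, and mean log2 CPM a prior count of 2. Standard errors and 95% intervals derive from the F statistic. Alternatives used limma 3.58.1 and DESeq2 1.42.0, and changed scaling, filter, test, replicate block and libraries. The fitting was tested on simulated data. The text names called genes, the 10 lowest p-values in each direction, the lowest p and the highest mean CPM of each list, and the study-named genes by count. Fdps, Gpam, Hamp, Hmgcs1, Hsd17b7, Idi1, Igfbp1, Insig2, Lpin1, Lyve1, Mvk, Npc1, Scap, Snap25, Srebf1, Srebf2, Tfrc, Thrsp and Tm7sf2 fell outside that rule and were chosen after their values were seen. Members and lists were chosen with earlier results of these data known. Gene coordinates are those of the deposited table (mm10). Samples were grouped by their titles. Some genes that entered the fits and lists are not reported here.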

Additional observations from a re-analysis of the deposited data

Results flagged for a closer look

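The MO effect differed between the sexes by the test of the difference itself in Sqle, by -1.57 (log2, n = 4 a group).

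Some single libraries lay far from the other 3 of their group. In CPM these were Msmo1 in CM5 (406), Pnpla3 in CM1 (13.7), Psmb9 in CF5 (78.3), Saa1 in CM4 (833) and in MF5 (105), Tat in MM1 (479), Dnajc28 in CF5 (15.6) and Arntl in MM1 (33.0). In mean log2 CPM of a list they were cholesterol synthesis in MM5 (4.56), peroxisomal fatty acid oxidation in CF5 (7.22), ketogenesis and PPAR alpha targets in CF6 (6.80), interferon response in CF5 (6.51), circadian clock in MF4 (4.89) and immediate early in MF4 (4.00). These are 14 of 200 groups of 4 examined, where chance flags about 1 in 20.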

How the results depend on the processing

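The sex difference called 2 genes, and 17 under the likelihood ratio test, 34 under DESeq2, 1 under limma voom, 1 with library totals, 0 with CM1 and MM1 both left out and 0 to 3 on leaving out 1 library. The replicate block called 0. The numbers in the titles did not pair the libraries. Same-numbered correlations were -0.48 to 0.61 over 20 pairs, 6 of them over 0.1, and 5 of 16 libraries matched best their own number. The median sex difference of the cholesterol synthesis list was -0.98 both with the block and without it. Why the block called no gene was not tested. The count of genes at p under 0.05 was 978 to 1659 over all alternatives. MM minus CM called 1029 under DESeq2, 932 under voom, 302 without CF5 and CM4, and 259 to 777 on leaving out 1 library. MF minus CF called 3201 under voom and 1062 to 2293 on leaving out 1 library. Medians moved by more than the spread between replicates in 10 of 858 list values: cholesterol uptake and SREBP control under voom (-0.42), fatty acid synthesis and desaturation under voom (-0.56) and without CM1 and MM1 (-0.45), heat shock under voom (-0.63), interferon response without CF5 (0.41, the lowest on leaving out 1 library, with 1.47 the highest) and without CF5 and CM4 (0.35), gluconeogenesis without MF4 (-0.59 to -0.11 on leaving out 1 library), immediate early without MF4 (-1.15 to -0.066), and cell death without CM1 (-0.085 to 0.10) and without CM1 and MM1 (0.13). The 858 values are those of the pathway lists, and marker lists were not in this count. The cause of these moves was not tested. With library totals the median over all genes was 0.04 in place of -0.01, and the small medians of the NRF2, cell death, complement, peroxisomal, study-named and translation factor lists changed sign. Of 519 values for the 20 genes with the lowest p (10 in each direction) 0 reversed. This is no support, since the genes were chosen by their p in these same libraries. With a median SE of 0.21, small sex differences were not detectable with 4 animals a group.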
